A study of Caenorhabditis elegans with 2 samples.

Results

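The 8 genes described here, lin-35, efl-1, dpl-1, lin-9, lin-37, lin-52, lin-53 and lin-54, encode the subunits of the C. elegans DREAM complex. They are 8 of the 19973 protein-coding genes of the nuclear chromosomes, and were selected by name as members of the complex, with the strong peaks beside lin-35 and lin-54 already known. All of them were found in the annotation. The data are chromatin immunoprecipitation sequencing (ChIP-seq) peak lists from whole late-embryonic hermaphrodites of strain OP370, taken 5 h after synchronization by egg bleaching. These animals carry the allele unc-119(tm4063) and the integrated transgene wgIs370, from which the homeodomain transcription factor CEH-31 is made as a fusion, its C terminus tagged with green fluorescent protein (GFP) and FLAG. Per the sample descriptions, the pull-down after sonication used an anti-GFP antibody, while the antibody field of the labels reads ceh-31, the name of the target gene. There were 2 biological replicates, both in 1 group, so the genes are compared with each other and with all other genes and not between conditions. The promoter that drives the transgene is not given in the sources used here, and neither is the number of reads behind a peak.

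DREAM is a repressor that joins a retinoblastoma-like pocket protein, an E2F and DP pair of DNA-binding proteins, and a core called MuvB. It is best known for holding cell cycle genes silent in cells that have stopped dividing, and in worms also for keeping germline genes off in the soma. LIN-35 is the pocket protein, EFL-1 and DPL-1 are the E2F and DP partners, and LIN-9, LIN-37, LIN-52, LIN-53 and LIN-54 form MuvB. In worms these genes belong to the synMuv B class, whose mutants grow extra vulvae when a gene of the synMuv A class is also lost. The measurements concern the DNA beside these genes in a pull-down of CEH-31. The DREAM proteins themselves were not measured.

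Genomic DNA around 3 member summits is shown because these summits lie between genes and hold the letters of sites that DREAM subunits are known to bind. The lin-53 summit also lies between genes and holds such letters, but sequence at lin-53 and lin-35 is not reported here. The stretches are reference sequence (RefSeq, WBcel235, the ce11 build of the lists), plus strand, up to 100 bp either side of the summit of the peak and clipped where a gene model begins. They are chrIV:13240652-13240773 for lin-54 (summit at base 22), chrIII:8904213-8904413 for lin-9 (summit at base 101) and chrV:16965735-16965935 for efl-1 (summit at base 101). Capitals mark TTTGAA, the letters of the cell cycle homology region (CHR) that LIN-54 is known to bind, the E2F letters TTTCCCGC or TTTCGCGC, and the run GTGGAGCGC, each on either strand.
lin-54: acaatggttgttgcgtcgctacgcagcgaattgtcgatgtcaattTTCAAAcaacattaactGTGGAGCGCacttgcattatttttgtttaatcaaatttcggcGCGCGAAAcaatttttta
lin-9: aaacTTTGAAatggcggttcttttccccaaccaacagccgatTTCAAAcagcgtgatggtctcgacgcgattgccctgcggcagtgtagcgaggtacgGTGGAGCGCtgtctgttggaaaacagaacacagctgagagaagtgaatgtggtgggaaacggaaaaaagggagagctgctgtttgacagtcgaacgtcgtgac
efl-1: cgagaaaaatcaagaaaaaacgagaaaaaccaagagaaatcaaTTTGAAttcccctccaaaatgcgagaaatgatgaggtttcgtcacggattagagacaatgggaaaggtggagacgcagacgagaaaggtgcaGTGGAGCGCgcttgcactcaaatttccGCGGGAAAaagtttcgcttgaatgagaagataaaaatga

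Each of these 3 stretches held at least 1 TTTGAA, and the lin-54 and efl-1 stretches each held 1 E2F match. They were picked for holding such letters, so these matches were fixed by the choice and describe only the printed DNA. Within 100 bp of all optimal summits, TTTGAA occurred at 27.2% and any of the E2F letters searched at 7.01%. None of the printed matches overlap. The run GTGGAGCGC was noticed by eye in these 3 sequences after the data were seen. It was absent within 100 bp of the lin-35 and lin-53 summits. It lay from -2 to 6 bp of the lin-9 summit, from 35 to 43 bp of the efl-1 summit and from 41 to 49 bp of the lin-54 summit, counted toward higher coordinates.

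Of the 8 genes, 5 had a summit in the promoter window in the list that the authors kept at their threshold of the irreproducible discovery rate, called the optimal list here. The window covered the 1000 bp before each annotated gene start and the 200 bp after it. These genes were lin-35, lin-54, lin-9, lin-53 and efl-1, so the pocket protein, the E2F protein and 3 of the 5 MuvB subunits were among them. In all protein-coding genes the share was 11.5% (2299 of 19973), a value that is given as background and without a test, since the genes were selected with some of these peaks in view. In the relaxed list from the pooled replicates, which also holds background regions, 7 of the 8 genes had a window summit, against 33.5% of all protein-coding genes (6683). The exception was lin-37, which had no window summit in any of the 4 lists. The optimal list held 3697 peaks, the pooled list 24555, replicate 1 21175 and replicate 2 22471.

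Among the genes with an optimal summit, lin-35 stood far above the others. Its peak signal, the score that the authors' caller gave each peak on a scale not stated, was 560.8 in replicate 1 and 653.0 in replicate 2, and 1206 in the pooled and optimal lists. It ranked 4 in replicate 1, 3 in replicate 2 and 4 in the optimal list. The lin-35 signal was above those of every other member in both replicates. The median optimal peak had a signal of 148.5, so the lin-35 peak was 8.12 times the median.

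lin-54, the gene for the CHR-binding subunit, came next. Its signal was 149.8 in replicate 1 and 207.9 in replicate 2, and 361.1 in the optimal list, where it ranked 312. Both replicates placed it under lin-35 and above the other members. The ratio of lin-35 to lin-54 was 3.74 in replicate 1 and 3.14 in replicate 2.

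lin-9, which encodes a core MuvB subunit, and lin-53, which encodes a histone-binding protein of the RbAp46/48 family, lay close together. The lin-9 signal was 113.0 in replicate 1 and 125.5 in replicate 2, and 245.6 in the optimal list (rank 734). The lin-53 signal was 97.98 in replicate 1 and 122.0 in replicate 2, and 219.3 in the optimal list (rank 910). Within each replicate lin-9 was the higher, but their ranges over the replicates overlapped, in signal and in rank, so these neighbours in the order did not differ beyond the spread.

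efl-1 had the weakest optimal peak of the 5. Its signal was 62.81 in replicate 1 and 93.79 in replicate 2, and 164.3 in the optimal list (rank 1580). Both replicate values were below both lin-53 values. The order lin-35, lin-54, lin-9, lin-53, efl-1 was the same in each replicate, and every neighbouring pair except lin-9 and lin-53 had ranges that did not overlap. With 2 replicates, no test of these differences was made. As means, the signals were 606.9 ± 65.2 for lin-35, 178.9 ± 41.1 for lin-54, 119.3 ± 8.87 for lin-9, 110.0 ± 17.0 for lin-53 and 78.3 ± 21.9 for efl-1 (SD, n = 2).

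The remaining members were below the optimal list. lin-52 encodes the small MuvB subunit that connects the core to the pocket protein. Its window held 1 relaxed summit, with a signal of 35.4 in replicate 1, 30.3 in replicate 2 and 63.5 in the pooled list (rank 6074). dpl-1, the DP gene, had a signal of 19.1 in replicate 1, no window summit in replicate 2 and at most 36.0 in the pooled list (rank 14675), which is under the pooled median of 40.4. The lowest signal in the optimal list was 90.5. efl-1 was thus the member nearest to this limit from above and lin-52 the nearest from below.

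**Figure D1:**
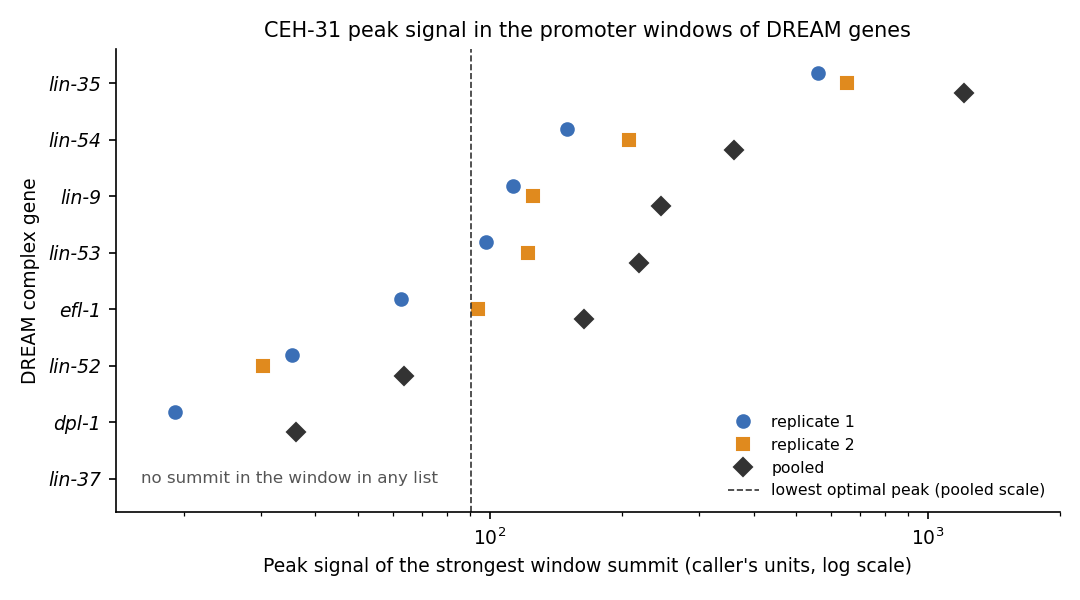
Peak signal of the strongest promoter window summit of each DREAM gene (x axis, caller's units, log scale) in replicate 1, replicate 2 and the pooled list, with genes ordered by pooled signal. lin-35 lies apart at 560.8, 653.0 and 1206, and the dashed line marks the lowest optimal peak, 90.5, on the pooled scale only.

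Replicate 2 gave the higher signal at all 5 optimal member peaks, as it did at 61.5% of all optimal peaks found in both. The ratio of replicate 2 to replicate 1 was 1.16 for lin-35, 1.39 for lin-54, 1.11 for lin-9, 1.24 for lin-53 and 1.49 for efl-1. Over the 3690 optimal peaks with a summit within 200 bp in each replicate, the median ratio was 1.08 (middle 50% from 0.912 to 1.26). The efl-1 ratio exceeded those of 89.7% of these peaks. Of the 5 members with an optimal peak, efl-1 was thus the one on which the replicates differed most in ratio. Its rank was 2341 in replicate 1 and 1363 in replicate 2. The pooled signal of each of these 5 members was close to the sum of its replicates, with ratios from 0.994 for lin-35 to 1.05 for efl-1 (median over optimal peaks 1.00).

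The replicates placed each of the 5 optimal member summits at nearly the same position. The replicate summits were 3 bp apart at lin-9, 5 bp at lin-54, 23 bp at lin-35, 28 bp at lin-53 and 55 bp at efl-1. The median over optimal peaks was 22 bp, with the middle 50% from 8 to 45 bp. Of these 5 members, efl-1 again had the widest separation. The relaxed lin-52 summits lay farther apart, at 9825340 in replicate 1 and 9825263 in replicate 2. In the optimal list the lin-9, lin-53 and lin-54 peaks were 153, 174 and 268 bp wide, the efl-1 peak had the width of 440 bp that 70.8% of optimal peaks share, and the lin-35 peak was 510 bp wide. In both replicate lists the lin-9 and lin-53 peaks had the median width of 436 bp, so of these only lin-54 was also narrow there, at 220 bp in replicate 1 and 238 bp in replicate 2.

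All 5 optimal summits lay upstream of the member in DNA between genes. lin-35 (WBGene00003020, chromosome I, 5807709 to 5815637, plus strand) had its peak at 5807196 to 5807705, with the summit at 5807460. This is 249 bp upstream of lin-35 and 169 bp upstream of vps-51. The vps-51 product belongs to a tethering complex of endosome-to-Golgi traffic, and the gene is read in the opposite direction. Only 417 bp separate the 2 gene models. The summit therefore lies between a pair of divergent starts and is nearer to vps-51.

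lin-53 (WBGene00003036, chromosome I, 9618196 to 9619760, minus strand) had its peak at 9619930 to 9620103. The summit, at 9620000, was 240 bp upstream of lin-53 and 227 bp upstream of nra-2, so it was about midway between the starts of these divergent genes. lin-54 (WBGene00003037, chromosome IV, 13241044 to 13243401, plus strand) had its peak at 13240554 to 13240821, with the summit at 13240673. That summit was 371 bp upstream of lin-54 but 22 bp upstream of rpl-12, a large-subunit ribosomal protein gene. At lin-35, lin-53 and lin-54 the neighbour's start was the nearer in the optimal list and in both replicates.

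At lin-9 and efl-1 the member's own start was the nearer. lin-9 (WBGene00002998, chromosome III, 8900237 to 8904131, minus strand) had its peak at 8904211 to 8904363, with the summit at 8904313, 182 bp upstream of lin-9 and 1302 bp upstream of the divergent unc-32, which encodes a subunit of the vacuolar proton pump. efl-1 (WBGene00001161, chromosome V, 16958590 to 16965675, minus strand) had its peak at 16965615 to 16966054, with the summit at 16965835, 160 bp upstream of efl-1 and 979 bp upstream of fbxa-90, an F-box gene. A peak list does not say which of 2 neighbouring genes a bound protein acts on, and no expression data were used here.

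The lin-9 locus held further optimal peaks outside the window. One had its summit 1273 bp upstream of lin-9 and 211 bp upstream of unc-32, with a signal of 77.88 in replicate 1, 101.7 in replicate 2 and 182.2 in the optimal list (rank 1319). The other, in an intron of lin-9, was 2837 bp downstream of the start. It had 52.2 in replicate 1, 40.3 in replicate 2 and 97.5 in the optimal list (rank 3388), which places it near the lowest optimal signal. No other member had an optimal summit within 3000 bp of its gene model outside the window.

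**Figure D2:**
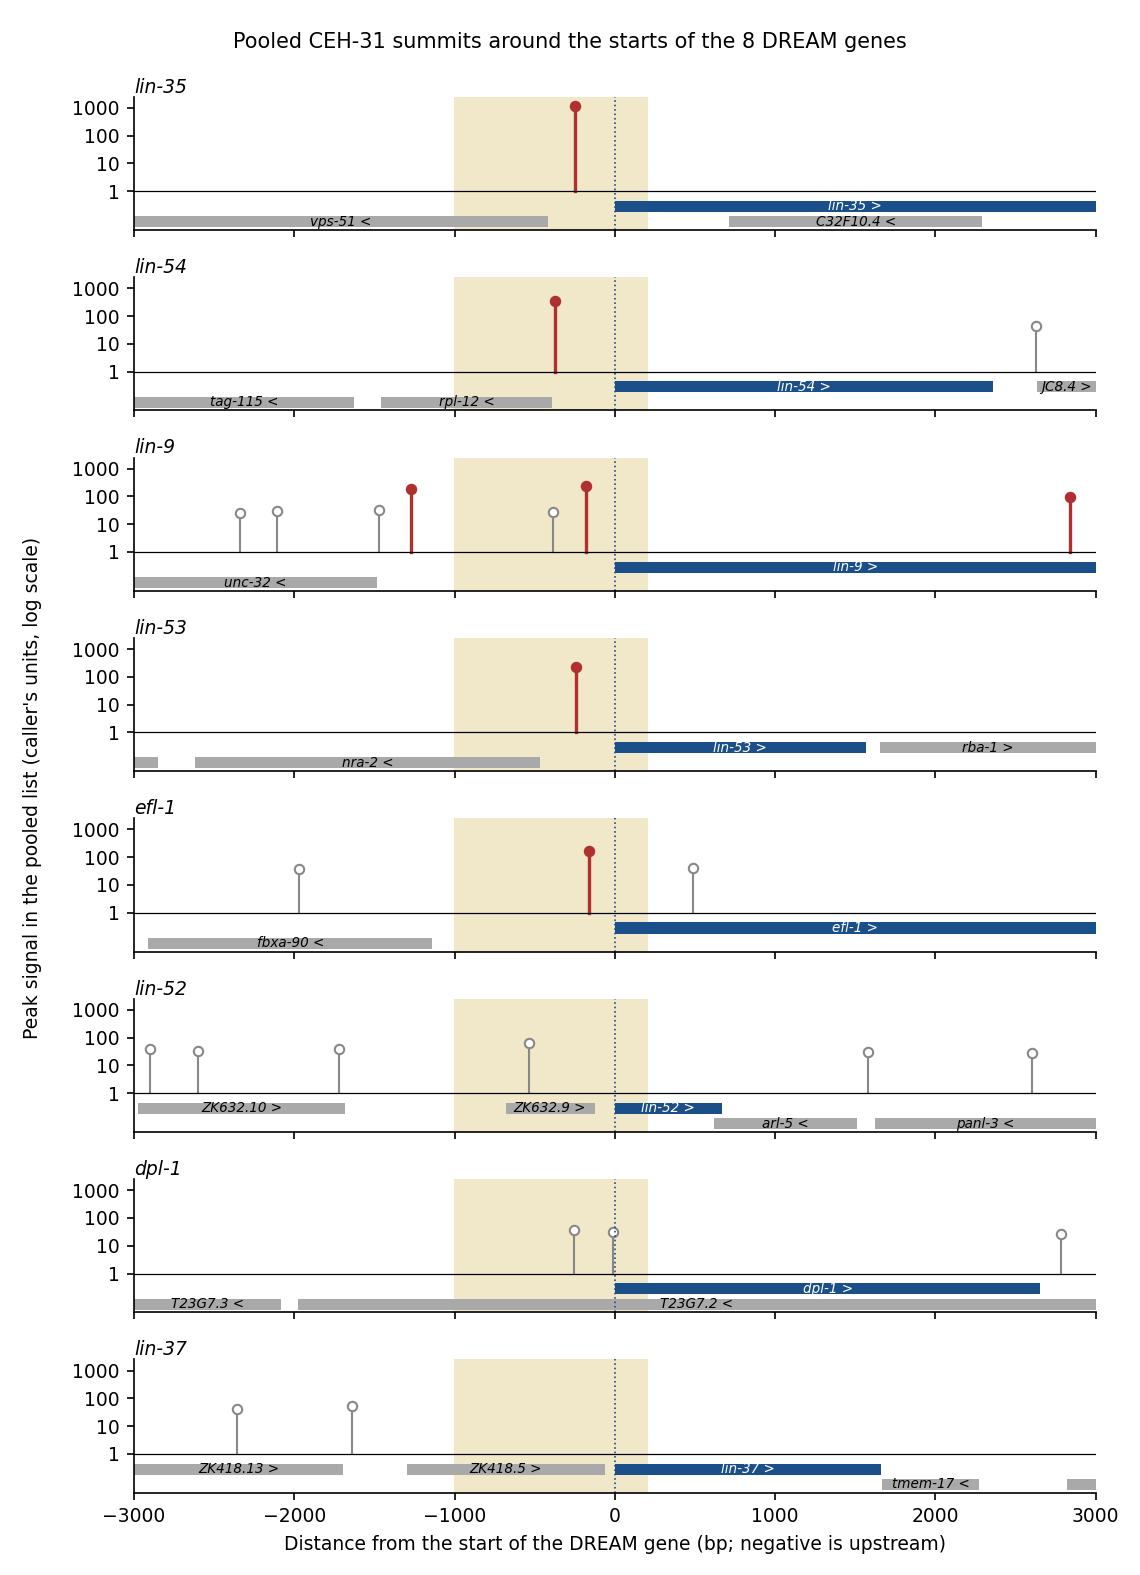
Summits of the pooled list within 3000 bp of the start of each DREAM gene (x axis, bp, negative is upstream; y axis, peak signal in caller's units, log scale). Filled red stems are optimal peaks and open grey stems are relaxed ones. Shading is the promoter window, the DREAM gene is blue and other protein-coding genes are grey (> same strand, < opposite strand). The 5 genes with a red summit in the shading each have a gene of the opposite strand on the upstream side. dpl-1, with no red summit, also has such a neighbour, T23G7.3, at a gap of 2079 bp.

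Of the 3 genes without an optimal summit, lin-37 and lin-52 have an upstream neighbour on the same strand. dpl-1 has a divergent one, T23G7.3, at a gap of 2079 bp. lin-37 (WBGene00003022, chromosome III, 7070890 to 7072552, minus strand) begins 60 bp past the end of ZK418.5, a gene on the same strand. In the window of ZK418.5 there was a relaxed summit with a signal of 23.2 in replicate 1, 27.2 in replicate 2 and 52.2 in the pooled list (rank 8258). lin-52 (WBGene00003035, chromosome III, 9824083 to 9824750, minus strand) begins 126 bp past the end of ZK632.9, also on the same strand, and its pooled summit at 9825284 lay 148 bp inside ZK632.9 in coding sequence. That summit is 534 bp upstream of lin-52. Whether lin-37 or lin-52 is transcribed together with its upstream neighbour was not examined here.

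dpl-1 (WBGene00001061, chromosome II, 9169910 to 9172565, plus strand) lies within T23G7.2, a gene model of the opposite strand. Its pooled summits were 258 and 10 bp upstream of its start, at 9169652 and 9169900, both over T23G7.2. The nearest optimal summit was 56862 bp away, and 90.0% of protein-coding genes had an optimal summit nearer to their start. For lin-37 that distance was 15565 bp and for lin-52 it was 5761 bp. The median over all protein-coding genes was 11760 bp, so lin-52 was nearer to an optimal summit than the typical gene, and dpl-1 much farther.

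The 5 genes with an optimal summit all have a divergent upstream neighbour with a gap of at most 2000 bp, from 392 bp at lin-54 to 1483 bp at lin-9. Genes of this arrangement had an optimal window summit in 23.4% of cases over the annotation (1187 of 5079). lin-37 and lin-52 have a same-strand neighbour with a gap of at most 200 bp, where the share was 5.19% (99 of 1907). dpl-1 falls in the remainder, at 7.80% (1013 of 12987), as its divergent neighbour T23G7.3 is 2079 bp away. These limits on the gap were set after the member loci had been seen, and no test was made.

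Among all genes with an optimal window summit, lin-35 took place 4 of 2299. The genes just above it were eel-1 (signal 1267, ranks 3 and 4 in replicates 1 and 2) and M01F1.9 (2131, rank 2 in both). vps-51 shares the lin-35 summit and so ties with it, and the next gene down was K01G5.10 (1066, rank 5 in both), which shares its own with tasp-1. This likeness is in 1 quantity, the optimal signal, over 2 replicates. lin-54 took place 311, lin-9 653, lin-53 782 and efl-1 1211. The median optimal window signal was 245.6 over the 5 members and 168.8 over all 2299 genes, and efl-1 was the one member below 168.8. As the members were selected with the peaks beside lin-35 and lin-54 known, these medians describe the genes and test nothing. The signals of lin-35, lin-54 and lin-53 also belong to summits nearer to vps-51, rpl-12 and nra-2.

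**Figure D3:**
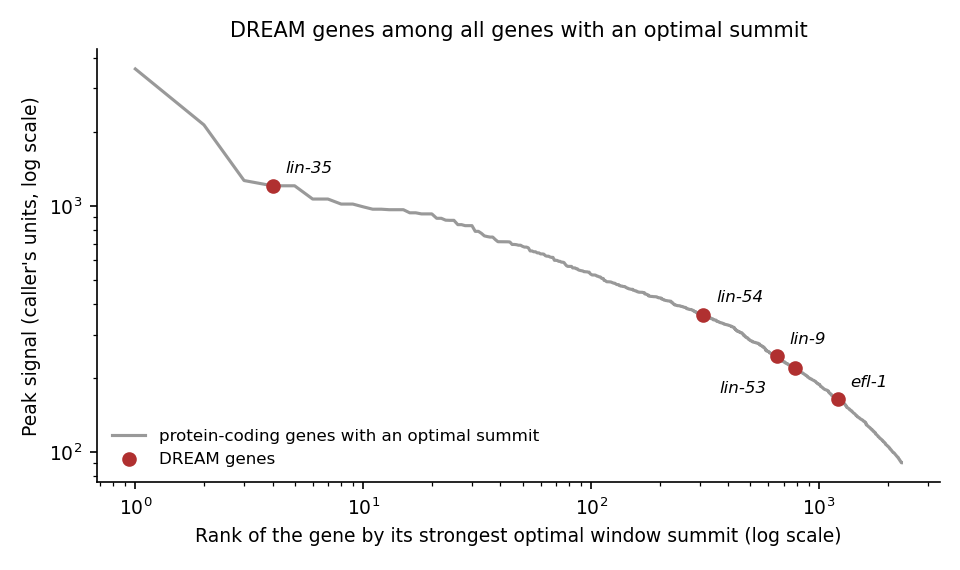
Peak signal (y axis, caller's units, log scale) of the strongest optimal window summit of each of 2299 protein-coding genes against the rank of the gene (x axis, log scale). The red points are the 5 DREAM genes, with lin-35 at place 4 and the others between places 311 and 1211.

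In the letters around the 5 optimal member summits (100 bp either side, both strands), TTTGAA or TTCGAA, the CHR letters, occurred in 4, at lin-54, lin-9, lin-53 and efl-1. Over all 3697 optimal summits the share was 33.9%. Any of the E2F letters TTTCCCGC, TTTGGCGC, TTTCGCGC and TTTGCCGC occurred at lin-54 and efl-1, against 7.01% of all optimal summits. TAATTG or TAAACG, cores known for Bar-class homeodomains, the class of CEH-31, occurred at none of the 5 and at 17.3% of all optimal summits. With 5 windows these are descriptions. The lin-35 window held none of the 8 words searched.

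In promoter stretches from 250 bp before to 50 bp after the gene start, CHR letters occurred in 6 of the 8 members, all but lin-35 and lin-52. Over all 19973 such promoters the share was 69.0%, so these short words are common. E2F letters occurred in the promoters of efl-1, lin-9 and lin-53, and in 4.70% of all promoters. The Bar cores occurred in those of lin-35, efl-1, lin-52 and lin-54, and in 31.9% of all promoters. GC content around the member summits ranged from 34.8% at lin-35 to 51.7% at lin-9, around a median of 45.8% for all optimal summits. Only 5.33% of optimal summits had a lower GC content than the lin-35 summit.

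Genes of related classes were counted in lists put together with an earlier report on these data known, so the counts carry no test. Beside the 5 of 8 DREAM genes, 6 of 11 synMuv B genes outside the complex had an optimal window summit, against the 11.5% of all genes. The strongest was at lin-61, which encodes a reader of methylated histone H3, with a signal of 507.1 at a summit 404 bp upstream that lies nearer to the spindle checkpoint kinase gene bub-1. It was followed by lin-13, a zinc finger protein gene (248.1, 796 bp upstream), and mep-1, another zinc finger protein gene (181.4, 200 bp upstream). Of 4 synMuv C genes, which encode parts of a histone acetyltransferase complex, mys-1 (326.3) and epc-1 (247.6) had one. Of 4 synMuv A genes 1 had an optimal summit, lin-38 (198.0).

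Genes upstream and downstream of the pocket protein were also counted. Of 12 genes for G1 regulators and the other E2F proteins, 5 had an optimal window summit. The strongest was at lin-23, the gene for an F-box protein of a ubiquitin ligase (signal 233.7, 976 bp upstream). The G1 kinase gene cdk-4 (183.3, 362 bp upstream) and the cyclin E gene cye-1 followed. The cye-1 summit (163.6, 572 bp upstream) lay nearer to pqn-21. Of 25 replication and mitosis genes, a class known to be repressed by DREAM in other settings, 10 had one. They were led by bub-1 (507.1) and the kinetochore genes ndc-80 (339.5) and knl-1 (316.2). The bub-1 summit is the same peak as that of lin-61, so this peak is counted in both lists. The share of all genes with an optimal window summit was 11.5%. Of 8 germ granule genes 1 had an optimal summit, mex-1 (927.4), which lay nearer to W03C9.5, and this share of 12.5% was close to that of all genes. In the pooled relaxed list, where 33.5% of all genes had a window summit, the counts beside the 7 of 8 DREAM genes were 8 of 11 for the other synMuv B genes, 3 of 4 for synMuv C, 1 of 4 for synMuv A, 9 of 12 for the G1 and E2F list, 22 of 25 for replication and mitosis and 2 of 8 for germ granules.

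**Figure D4:**
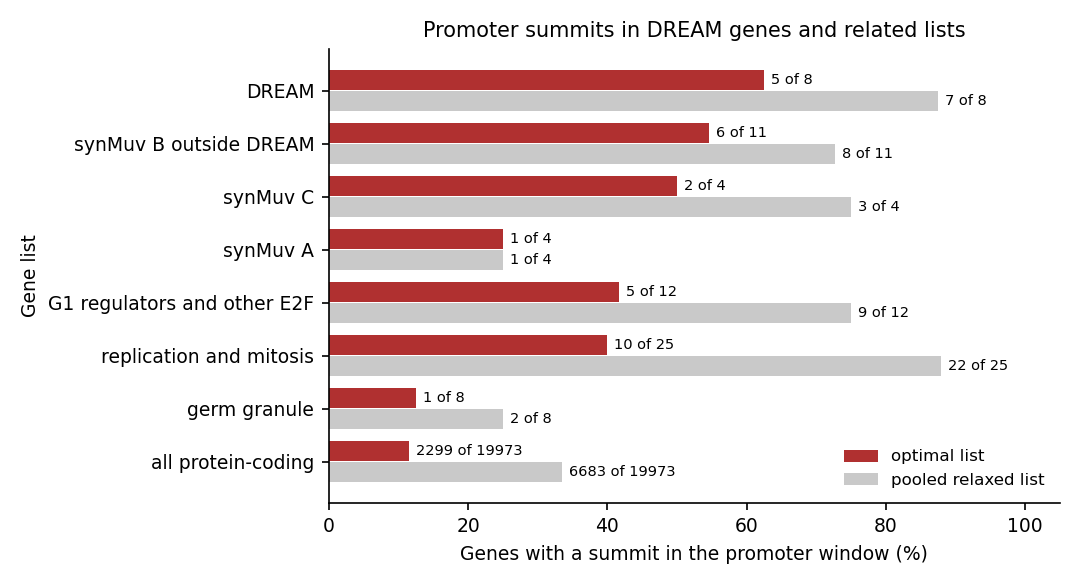
Share of genes with a promoter window summit (x axis, percent) in the optimal list (red) and the pooled relaxed list (grey) for the DREAM genes, related lists and all protein-coding genes, with counts at the bars. DREAM reached 5 of 8 and 7 of 8, against 2299 and 6683 of 19973 for all genes.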

How the data were processed

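Peak lists of 2 biological replicates of one ChIP-seq group were used, in ce11 coordinates (WBcel235). The authors called 1 relaxed list per replicate and 1 on the pooled replicates, each against a control, and made the optimal list from these 3, as the deposited text files state. No source used here names the aligner, the caller or the IDR threshold. The peak signal is a score per peak deposited by the authors, used as ranks and ratios within a list. It was also used across lists, for ratios between lists and for means and SDs over the replicates. The lists were not scaled to each other here, so the SDs include any difference in scale. The deposited −log10 q-value was used only to see that 3371 optimal peaks share its highest value, so it does not order them. Summits are column 2 plus the deposited summit offset, printed 1-based. Peak lists hold no counts, so depth is unknown and no interval was computed.

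Genes were those of Ensembl release 115, and sequence was RefSeq's WBcel235 genome. Every peak ended within the chromosome lengths of that genome. The annotated start of many worm genes is a trans-splice or translation start. Words were searched on both strands. Python 3.11.15, pandas 2.3.3, numpy 2.4.6 and matplotlib 3.10.9 were used, and the window search was tested on planted summits. The named genes are the members, the gene nearest to each window summit, up to 3 genes with the highest signal of each other list, and the 2 genes on either side of lin-35 by signal. Members and lists were chosen with earlier results of these data known, and no test was made. Alternatives changed the window, the peak threshold, the replicate, the gene start and the distance that counts as shared. The ce10 lists were not used here, and sequence at lin-35 and lin-53 is not reported here.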

Additional observations from a re-analysis of the deposited data

How the results depend on the processing

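The count of 5 DREAM genes with an optimal summit was 5, and named the same genes, with promoter windows of 500 to 100 bp and 2000 to 500 bp, with the strongest 50% of optimal peaks, with the start of any transcript, and with the 3697 strongest peaks of either replicate alone. The count over all protein-coding genes was 1367 (6.84%) with the strongest 50% of peaks, and from 2255 to 2305 with either replicate alone. It was 1793 (8.98%) with the narrower window, 3063 (15.3%) with the wider one and 2500 (12.5%) with the start of any transcript. The count of members with a pooled summit was 6 with the narrower window (lin-52 was lost) and 8 with the wider one (lin-37 was gained). The related gene lists were counted with the main window only. Among their named genes, lin-23, cye-1, lin-13 and mex-1 had their summits more than 500 bp upstream, outside the narrower window. The median member signal ranged from 113.0 to 125.5 in single replicates, a scale on which pooled values are about the sum, and the lin-35 rank from 3 to 4. Partners in both replicate lists were found for all 5 member summits at 200, 100 and 50 bp. At 200 bp this held for 3690 of all 3697 optimal peaks, so it does not set the members apart. The share of all optimal peaks at 100 and 50 bp was not computed. No comparison of conditions, paired or not, was possible because both replicates belong to 1 group. Genes were compared within each replicate, without a test. Read depth and the control library limit what a missing summit at lin-37 can show, and neither was used here.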

Other observations

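The run GTGGAGCGC, seen by eye at lin-54, lin-9 and efl-1, occurred within 100 bp of 54 of the 3697 optimal summits (1.46%). It was in 11 of 7394 equally wide windows 1000 bp away on both sides (0.149%) and in 96 of 19973 promoters (0.481%). The promoters run from 250 bp before to 50 bp after the gene start and so are longer than the summit windows. Among optimal summits it was found at 25 of the 925 strongest (2.70%), then at 11, 5 and 13 of the following 924 each. The run was picked from 3 of the 54 windows, so these shares describe it and test nothing.

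dpl-1 and efl-1 encode the partners of 1 heterodimer. Within 10 kb of its start dpl-1 had 6 pooled summits and no optimal one, while efl-1 had 3 pooled summits, of which 1 was optimal.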
